A study of Mus musculus with 32 samples.

Results

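The genes described here are the chains of the collagens, laminins and integrins, taken as every protein-coding gene of the count table whose symbol in the GENCODE M21 annotation starts as a collagen alpha chain, a laminin chain or an integrin alpha or beta chain. The rule took 84 of the 54532 gene identifiers in the table, of which 21995 were protein-coding. Of the 84, 44 were collagen chains, 11 were laminin chains, 24 were integrin chains and 5 were other proteins whose symbols start with the same letters (Col4a3bp, a ceramide transfer protein, and Itgb1bp1, Itgb1bp2, Itgb3bp and Itgbl1). The integrin chains Itgad, Itgae and Itgax fell outside the letters of the rule and summed to at most 1.26 CPM in any mouse.

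RNA from the striatum of 32 mice, all 6 months old, was sequenced after poly(A) selection, with 8 mice in each of 4 groups. The groups were wild-type, Msh3-/-, zQ175 and zQ175:Msh3-/-. zQ175 carries an expanded CAG repeat in the mouse's own Htt gene, a knock-in model of Huntington's disease in which the mutant gene is under its own promoter in all cells, and in the study's cross it came from the sires alone. Msh3-/- mice lack the mismatch repair gene Msh3 in all cells through a deletion between exons 3 and 8 made by CRISPR Cas9, and the colonies were on C57BL/6J. The mice were bred as littermates, and each group held 4 males and 4 females except zQ175:Msh3-/-, with 5 males and 3 females. The question of the design was whether loss of Msh3 changes what zQ175 does to striatal gene expression.

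Collagens are trimers of alpha chains that build fibrils, beaded filaments and the sheet of the basement membrane, and laminins are trimers of an alpha, a beta and a gamma chain that give the basement membrane its other network. Integrins are pairs of an alpha and a beta chain in the cell membrane that bind these proteins outside the cell and the cytoskeleton within it. In the brain most of the basement membrane lies around the vessels and under the meninges, and microglia, astrocytes, oligodendrocytes and neurons each carry their own set of integrins.

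The total count per mouse ranged from 12359347 to 25030335. Reads of Msh3 lay between 10.4 and 14.2 CPM (reads of a gene over the library's total, scaled by trimmed mean of M-values and multiplied by 1000000) in the 16 mice of the 2 Msh3-/- groups and between 22.8 and 27.5 CPM in the other 16, without overlap, and the reads left are counted over the whole gene, deleted exons and remaining ones alike. Markers of other tissue differed between mice of every group. Ttr, the transthyretin gene that defines choroid plexus epithelium, was at 357 to 2723 CPM in 8 mice (2 wild-type, 3 Msh3-/-, 1 zQ175 and 2 zQ175:Msh3-/-) and at 14.5 to 170 CPM, with a median of 42.1, in the other 24. The summed level of 4 markers of cortical neurons, Neurod6, Tbr1 and Slc17a7 among them, ran from 33.0 to 623 CPM over all mice. The summed level of 8 markers of spiny neurons, the main striatal neuron, was 6307 to 8151 CPM in the 16 mice without zQ175 and 3235 to 4254 CPM in the 16 with it. The summed endothelial markers were at 214 to 250 CPM in wild-type and 156 to 214 CPM in zQ175, and the summed mural markers at 146 to 177 and 123 to 151 CPM. In whole tissue, fewer cells of a type and less RNA per cell cannot be told apart. Results are given below with and without the 8 mice of high Ttr where that matters, and with Ttr and the cortical markers as covariates.

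Most of these genes were expressed at low levels in the striatum. Per length, in TPM (transcripts of a gene in every 1000000, which corrects for length) over all 32 mice, the median over the 84 genes was 2.22 TPM, and 20 lay under 1 TPM. The most abundant were Itgb1bp1, which binds the tail of Itgb1 and limits its activation, at 67.5 TPM, Col6a1 at 54.2, Col4a3bp at 52.0, Itgav at 51.1, Itgb5 at 45.0 and Itgb1 at 40.6 TPM. Among the basement membrane chains, Col4a2 stood at 12.6 and Col4a1 at 9.29 TPM, and the laminin chains of vessels and parenchyma at 16.1 for Lamb1, 15.1 for Lamc1, 11.9 for Lamb2 and 6.65 TPM for Lama2. The classical chains of connective tissue were scarce, with Col1a2 at 2.40, Col1a1 at 1.32 and Col3a1 at 0.602 TPM. The microglial pair Itgam and Itgb2, the complement receptor, stood at 13.8 and 5.38 TPM. The lowest was Col10a1 at 0.0343 TPM. A filter on low counts left 75 of the 84 for testing and took out Col9a1, Col10a1, Col22a1, Col28a1, Col6a6, Itga2, Itgb2l, Itgb6 and Itgb1bp2.

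**Figure D1:**
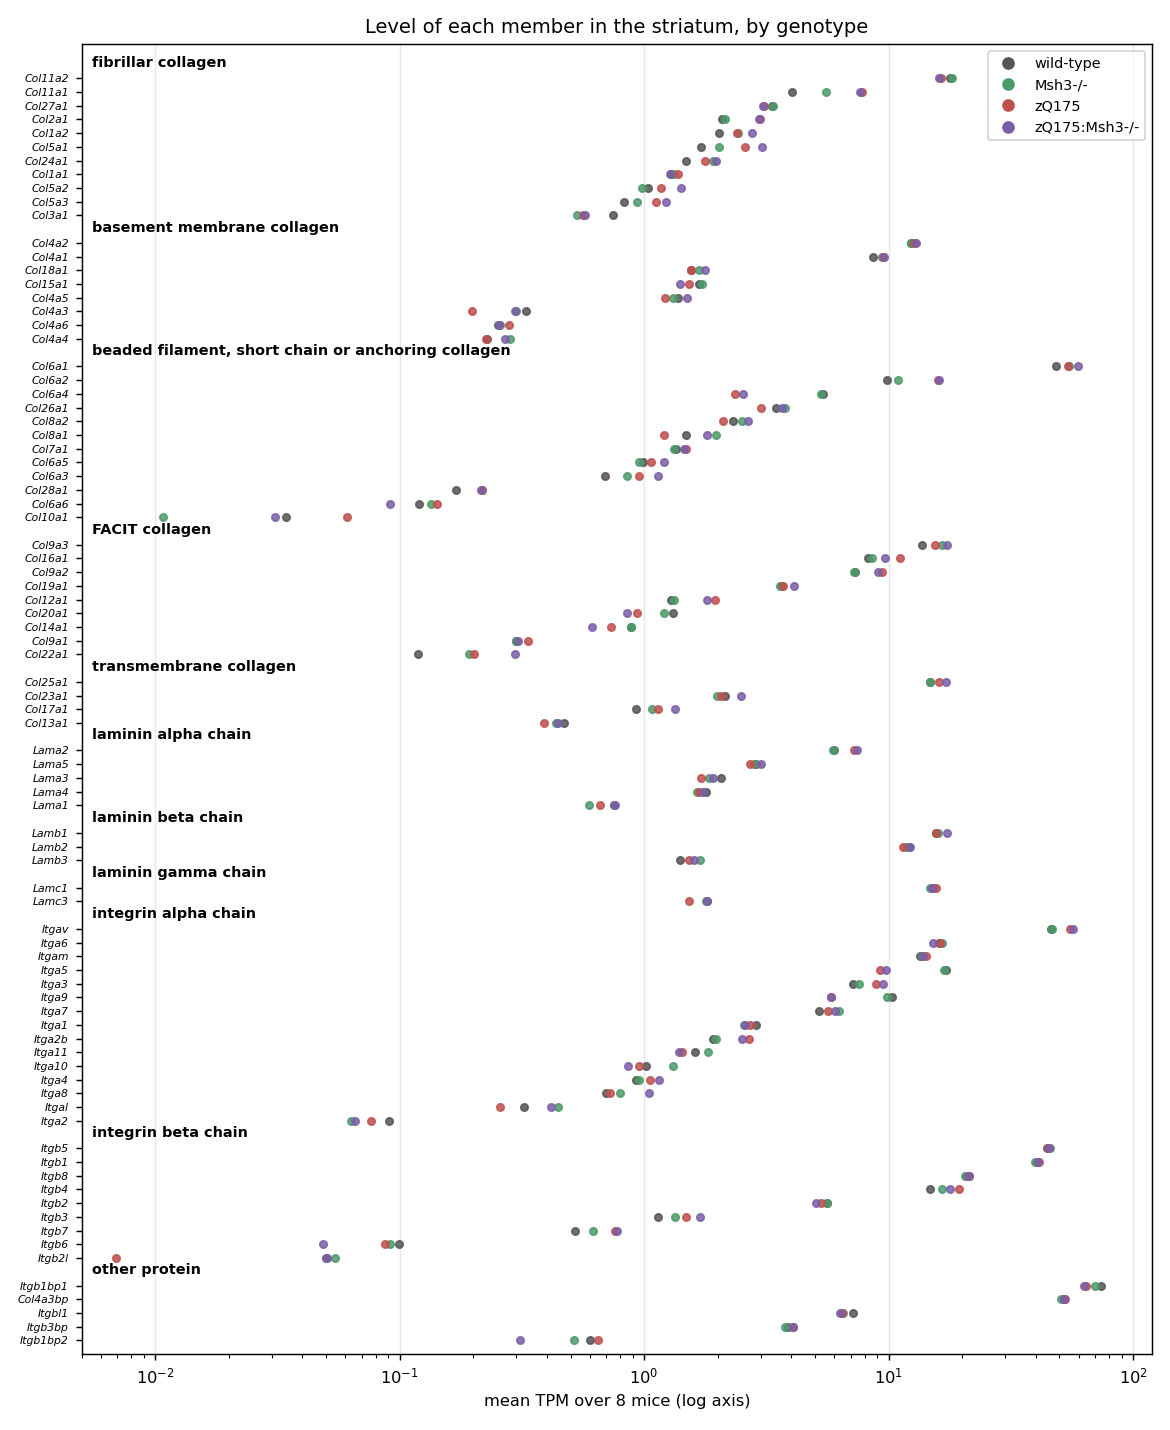
Mean TPM of 83 of the genes in each genotype (8 mice per point, log axis), ordered by level within its structural class. Col6a1, Itgav, Itgb5 and Itgb1 stand highest among the chains, and for most genes the 4 genotypes lie close together, with Itga5, Itga9, Col6a2 and Col6a4 among those whose 2 groups with zQ175 stand away from the 2 without it.

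Promoter sequence was taken from RefSeq on GRCm38.p6 for the members whose data are set out first below, since they moved with zQ175 and have a window free of annotated exons. The table matched 61 of the 84 genes, with 67 start sites. The 250 bases before the start site are printed 5′ to 3′ on the gene's own strand. Capitals mark a GC box (GGGCGG on either strand) or a CCAAT box (CCAAT on either strand), which share no base in these windows. Itga5 fell, Col6a2 and Col11a1 rose, and Itgav was higher by less than the fold threshold.
Itga5 (chr15:103366792-103367041, minus strand): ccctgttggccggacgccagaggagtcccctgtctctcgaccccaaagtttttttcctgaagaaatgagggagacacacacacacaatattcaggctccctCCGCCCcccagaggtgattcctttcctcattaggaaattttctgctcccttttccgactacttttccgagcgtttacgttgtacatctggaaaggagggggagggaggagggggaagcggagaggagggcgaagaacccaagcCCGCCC
Col6a2 (chr10:76623631-76623880, minus strand): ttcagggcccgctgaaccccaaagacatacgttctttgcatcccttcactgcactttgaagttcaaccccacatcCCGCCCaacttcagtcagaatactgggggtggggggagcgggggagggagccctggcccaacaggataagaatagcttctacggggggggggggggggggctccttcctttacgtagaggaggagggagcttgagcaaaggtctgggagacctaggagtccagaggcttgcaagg
Col11a1 (chr3:114030290-114030539, plus strand): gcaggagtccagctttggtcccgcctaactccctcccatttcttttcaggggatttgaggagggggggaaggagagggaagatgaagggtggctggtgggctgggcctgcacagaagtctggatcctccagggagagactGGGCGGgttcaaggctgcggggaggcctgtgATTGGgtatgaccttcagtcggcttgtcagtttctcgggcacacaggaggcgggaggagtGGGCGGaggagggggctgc
Itgav (chr2:83724147-83724396, plus strand): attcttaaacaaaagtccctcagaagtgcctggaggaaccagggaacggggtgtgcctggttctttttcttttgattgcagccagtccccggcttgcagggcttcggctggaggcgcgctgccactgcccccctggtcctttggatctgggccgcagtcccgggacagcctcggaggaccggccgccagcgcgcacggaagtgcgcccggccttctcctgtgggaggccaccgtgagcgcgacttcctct
The windows of Itga5 and Col11a1 held 2 GC boxes each, that of Col6a2 held 1 and that of Itgav none of these letters, and Col11a1 also held 1 CCAAT box. A GC box was in 32 of the 67 windows of these genes (47.8%) and in 32.7% of all 32851 windows of that length, and a CCAAT box in 17 of the 67 (25.4%) and in 33.8% of all. A TATA box (TATAAA on either strand) was in 5 of the 67 (7.46%) against 12.4% of all windows, the cAMP response element TGACGTCA in 0 against 1.55%, and an AP-1 site (TGANTCA on either strand) in 1 (1.49%) against 6.75%. The median GC content was 58.0% for these windows and 52.4% for all.

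In zQ175 against wild-type mice, 8 of the 75 tested genes were higher and 6 were lower, with an adjusted p below 0.05 and a fold of 1.2 or more (edgeR, quasi-likelihood, Benjamini-Hochberg over the 16610 genes tested). Over all genes tested, 4.7% passed in the higher direction and 6.89% in the lower. The shares among these genes were 10.7% and 8%. In zQ175:Msh3-/- against Msh3-/- mice, which share no mouse with the first comparison, 6 were higher and 6 were lower, 8% each, where 4.68% and 5.96% of all genes passed. Of these genes, 9 of 75 (12%) passed in the same direction in both, where 7.29% of all genes did. Col11a1, Col12a1, Col2a1 and Col6a2 were among those higher, and Itga5, Itga9, Col6a4 and Col20a1 were lower. The median log2 fold change of the 75 was -0.0429 in the first comparison, beside 0.0116 over all genes, and -0.0191 in the second, beside 0.0143.

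**Figure D2:**
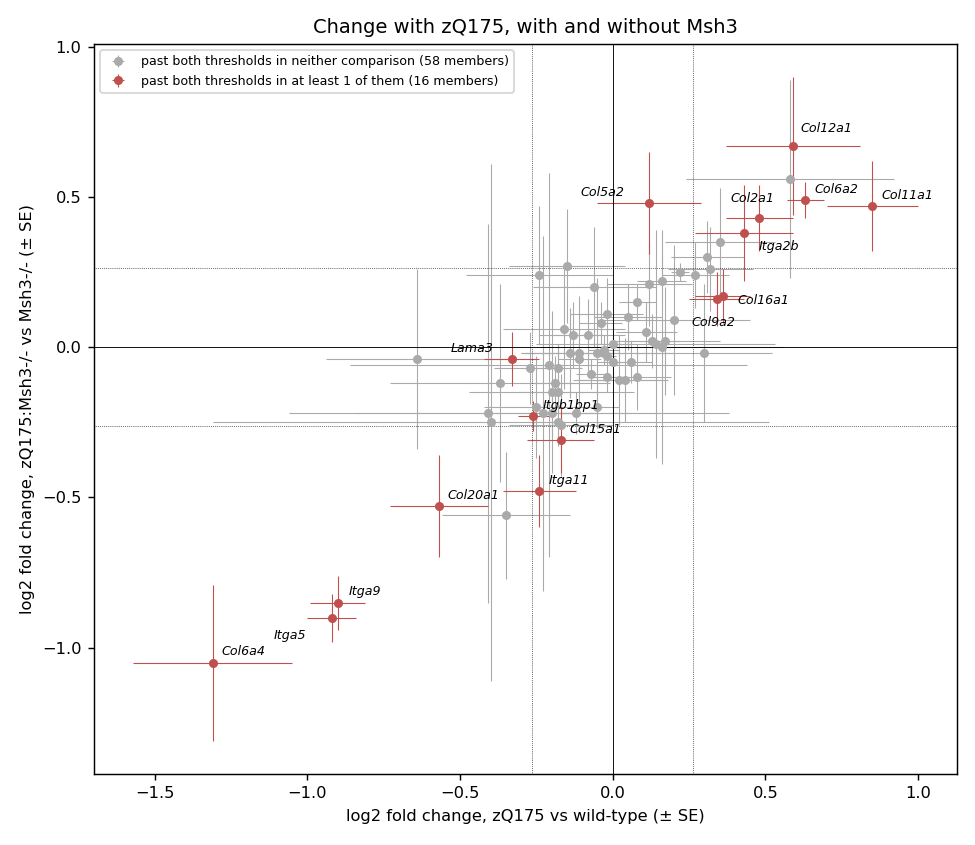
Log2 fold change of 74 of the tested genes in zQ175 against wild-type (horizontal) and in zQ175:Msh3-/- against Msh3-/- (vertical), with standard errors, 8 mice per group. Red marks the 16 genes past both thresholds in at least 1 comparison, dotted lines mark a fold of 1.2, and Itga5, Itga9 and Col6a4 lie far out at the lower left and Col6a2, Col11a1 and Col12a1 at the upper right.

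Among the integrins, a pair of alpha chains that join Itgb1 fell while Itgb1 itself did not pass. Itga5, which with Itgb1 makes the main fibronectin receptor, is on chr15:103344286-103366763 (minus strand) and ran from 23.5 to 32.5 CPM with a median of 29.4 in wild-type mice, and from 13.1 to 17.1 with a median of 15.3 in zQ175. In Msh3-/- it ran from 26.7 to 37.1 with a median of 28.8, and in zQ175:Msh3-/- from 12.3 to 18.5 with a median of 16.0 CPM. Each mouse with zQ175 stood below each mouse without it. The fall was 1.90-fold in zQ175 against wild-type (log2 fold change -0.92 ± 0.08 SE, adjusted p = 7.0e-12) and 1.86-fold without Msh3 (-0.90 ± 0.08, adjusted p = 2.26e-11).

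Itga9, which with Itgb1 binds tenascin C and other ligands, is on chr9:118606690-118901003 (plus strand). Its levels were 28.1 to 34.6 CPM in wild-type, median 32, and 14.8 to 22.6 in zQ175, median 16.1. In Msh3-/- they were 24.1 to 33.7, median 30.5, and in zQ175:Msh3-/- 11.5 to 19.2, median 17.2 CPM, so that the groups with and without zQ175 did not overlap here either. The log2 fold change was -0.90 ± 0.09 (adjusted p = 6.24e-10) and -0.85 ± 0.09 (adjusted p = 3.32e-09). Without the 8 mice of high Ttr the values were -0.91 and -1.0 for Itga5 and -0.92 and -0.90 for Itga9, and with Ttr and the cortical markers as covariates -0.88 and -0.84 for Itga5 and -0.90 and -0.86 for Itga9. Within groups, over 32 mice, the log2 level of Itga5 ran with the summed spiny neuron markers at r = 0.68 and that of Itga9 at r = 0.43, as deviations from the group means. The spiny neuron markers were lower in the same mice, 7 of 8 past both thresholds in each comparison, and their part in the fall was not tested.

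The beta chain they share did not pass. Itgb1 lay at 60.4 to 70.5 CPM in wild-type and 63.9 to 69.1 in zQ175, with a log2 fold change of -0.02 ± 0.03 (adjusted p = 0.727). As a ratio of TPM, Itga5 to Itgb1 had a median of 0.442 in wild-type and 0.404 in Msh3-/- (lowest mouse 0.339), and 0.219 in zQ175 and 0.234 in zQ175:Msh3-/- (highest mouse 0.266). Itga9 to Itgb1 had medians of 0.264, 0.249, 0.133 and 0.149 in the same order.

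Itgav, the alpha chain of the vitronectin receptors and of the integrins that release active TGF-beta, moved the other way by a small but even step. It lay at 105 to 121 CPM in wild-type, median 116, and at 121 to 142 in zQ175, median 135, and at 107 to 118 in Msh3-/-, median 112, and 124 to 142 in zQ175:Msh3-/-, median 134. The groups met at 121 CPM in the first pair and did not overlap in the second. The log2 fold change was 0.22 ± 0.03 (adjusted p = 2.8e-06) and 0.25 ± 0.03 (adjusted p = 1.92e-07), under the fold of 1.2 in both. Its partners had log2 fold changes of -0.07 ± 0.05 for Itgb5 and -0.03 ± 0.05 for Itgb8, which is abundant in astrocytes, with adjusted p of 0.289 and 0.767. Itgb3, the partner that makes the vitronectin receptor of vessels and platelets, was at 0.31 ± 0.12 in zQ175 (adjusted p = 0.0593) and 0.30 ± 0.12 without Msh3 (adjusted p = 0.0675).

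Of the other integrin chains, Itga2b, the platelet chain that pairs with Itgb3, passed in zQ175 at a low level, 1.10 to 2.59 CPM against 1.16 to 1.79 in wild-type, with overlap (0.43 ± 0.16, adjusted p = 0.0398). It was at 0.38 ± 0.16 in zQ175:Msh3-/- against Msh3-/- (adjusted p = 0.0756), and without the mice of high Ttr its adjusted p in zQ175 was 0.0765. With Ttr and the cortical markers as covariates its values were 0.47 (adjusted p = 0.022) and 0.43 (adjusted p = 0.0438). Itga11, a collagen-binding chain, passed in the second comparison only, at 1.98 to 3.55 CPM against 3.07 to 4.90 in Msh3-/- (-0.48 ± 0.12, adjusted p = 0.00386), with -0.24 ± 0.12 in the first (adjusted p = 0.154). Without the mice of high Ttr its adjusted p in the second was 0.0569, and with the covariates 0.0048 (log2 fold change -0.49). The interaction test did not separate the comparisons for any gene, as given below. The microglial chains Itgam and Itgb2 were at 0.00 ± 0.05 and -0.12 ± 0.07 in zQ175. Itgb2 was at -0.22 ± 0.07 (adjusted p = 0.0285, under the fold) in zQ175:Msh3-/- against Msh3-/-. Itga6, the alpha chain of the laminin receptors, was at -0.05 ± 0.07 and -0.20 ± 0.07, the second with adjusted p = 0.0353 and under the fold. Without the mice of high Ttr the second value was -0.24 for Itgb2 (adjusted p = 0.0644) and -0.14 for Itga6 (adjusted p = 0.225). With the covariates it was -0.22 for Itgb2 (adjusted p = 0.023) and -0.22 for Itga6 (adjusted p = 0.0226). Itgb1bp1 ran from 40.7 to 49.9 CPM in wild-type and 34.7 to 40.7 in zQ175, the top zQ175 mouse just below the lowest wild-type mouse. Its log2 fold change of -0.26 ± 0.05 (adjusted p = 4.16e-05) sat at the fold threshold, and the value of -0.23 ± 0.05 without Msh3 (adjusted p = 4.35e-04) was under it.

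Collagen VI gave a contrast between neighbours. Its main trimer joins Col6a1, Col6a2 and a longer chain such as Col6a3 into beaded filaments, and Col6a2 and Col6a1 lie 85161 bases apart on the minus strand of chr10, Col6a2 at 76595762-76623630. Col6a2 ran from 15.7 to 19.3 CPM in wild-type, median 17.0, and from 22.9 to 31.0 in zQ175, median 26.6. It ran from 17.1 to 22.0 in Msh3-/-, median 18.8, and from 24.7 to 28.6 in zQ175:Msh3-/-, median 26.7 CPM. The groups with and without zQ175 did not overlap. The rise was 1.54-fold in zQ175 (0.63 ± 0.06, adjusted p = 3.41e-11) and 1.41-fold without Msh3 (0.49 ± 0.06, adjusted p = 1.31e-08), and with the mice of high Ttr left out the second was 0.46.

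Col6a1, at 70.8 to 105 CPM in wild-type and 69.5 to 121 in zQ175, overlapped throughout (0.11 ± 0.10, adjusted p = 0.441, and 0.05 ± 0.10, adjusted p = 0.791). Per length, the ratio of Col6a2 to Col6a1 TPM had a median of 0.206 in wild-type and 0.205 in Msh3-/-, and of 0.292 in zQ175 and 0.270 in zQ175:Msh3-/-. The ratio ran from 0.154 to 0.235 over the 16 mice without zQ175 and from 0.222 to 0.352 over the 16 with it. Within groups the levels of both chains ran together over 32 mice at r = 0.47. Col6a3 was at 0.32 ± 0.14 in zQ175 (adjusted p = 0.0781) and 0.26 ± 0.14 without Msh3 (adjusted p = 0.160).

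Col6a4, a longer chain that can take the place of Col6a3 in the trimer, fell. It ran from 5.75 to 20 CPM in wild-type, median 12.4, against 3.83 to 6.53 in zQ175, median 4.38, and from 6.68 to 20.8 in Msh3-/-, median 8.81, against 1.90 to 7.09 in zQ175:Msh3-/-, median 5.63. The wild-type and zQ175 mice overlapped between 5.75 and 6.53 CPM, and the spread within the groups without zQ175 was wide. The log2 fold change was -1.31 ± 0.26 (adjusted p = 2.44e-04) and -1.05 ± 0.26 (adjusted p = 0.00274), and the second was -0.55 with an adjusted p of 0.0557 without the mice of high Ttr. With Ttr and the cortical markers as covariates the values were -1.27 (adjusted p = 8.41e-04) and -0.99 (adjusted p = 0.0103). Its neighbour Col6a5, 28810 bases away, was at 0.20 on the log2 scale (adjusted p = 0.603).

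**Figure D3:**
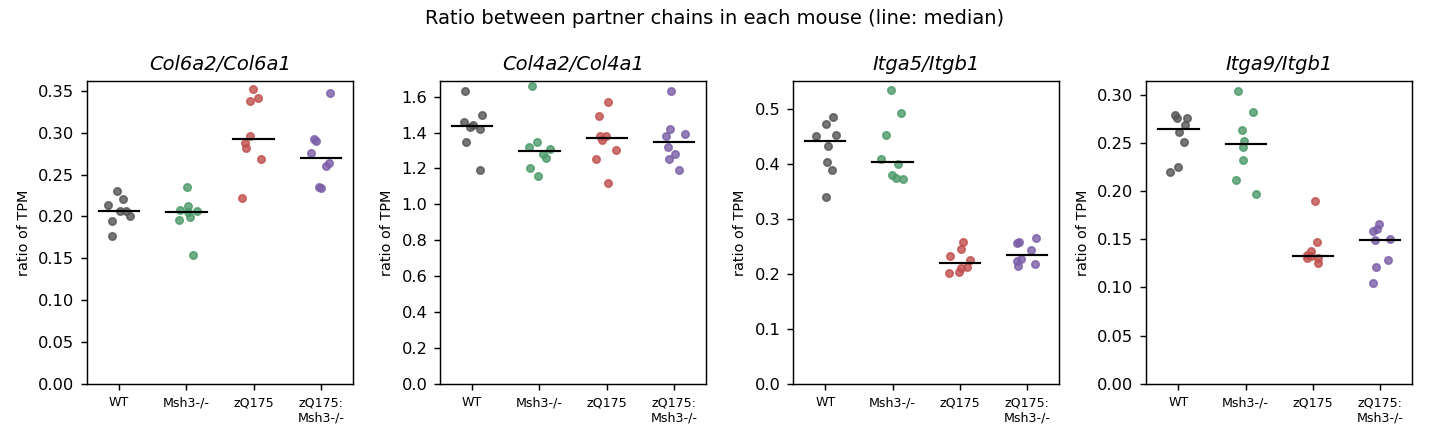
Ratio of the TPM of partner chains in each of the 32 mice, by genotype, with the median as a line. The ratio of Col6a2 to Col6a1 is higher and those of Itga5 and Itga9 to Itgb1 are lower in the 2 groups with zQ175, and the ratio of Col4a2 to Col4a1, with medians of 1.44, 1.30, 1.37 and 1.35, overlaps throughout.

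Among the laminins, Lama3, the alpha chain of the laminin of epithelial adhesion, fell in zQ175. It ran from 6.58 to 8.12 CPM in wild-type, median 7.11, and from 4.36 to 7.79 in zQ175, median 5.63, and from 5.62 to 7.13 in Msh3-/-, median 6.27, and 5.02 to 7.52 in zQ175:Msh3-/-, median 5.96. The groups overlapped in both pairs. The log2 fold change was -0.33 ± 0.09 (adjusted p = 0.00605) in zQ175 and -0.04 ± 0.09 (adjusted p = 0.825) without Msh3, and the interaction for this gene did not pass, as given below. Lamb3, a beta chain of the same laminin, was at 0.02 ± 0.15 (adjusted p = 0.944).

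The chains found in most other laminins did not pass. Lamc1, a gamma chain, was at -0.02 ± 0.05 (adjusted p = 0.855), with 40.1 to 53.6 CPM in wild-type and 43.7 to 51.8 in zQ175. The vascular and parenchymal chains Lama2, Lama4, Lama5, Lamb1 and Lamb2 had log2 fold changes between -0.14 and 0.16 in zQ175, none past the thresholds. Lama2 reached 0.22 ± 0.08 without Msh3 (adjusted p = 0.0362, under the fold). This value was 0.20 (adjusted p = 0.206) without the mice of high Ttr. With Ttr and the cortical markers as covariates it was 0.25 (adjusted p = 0.0189).

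**Figure D4:**
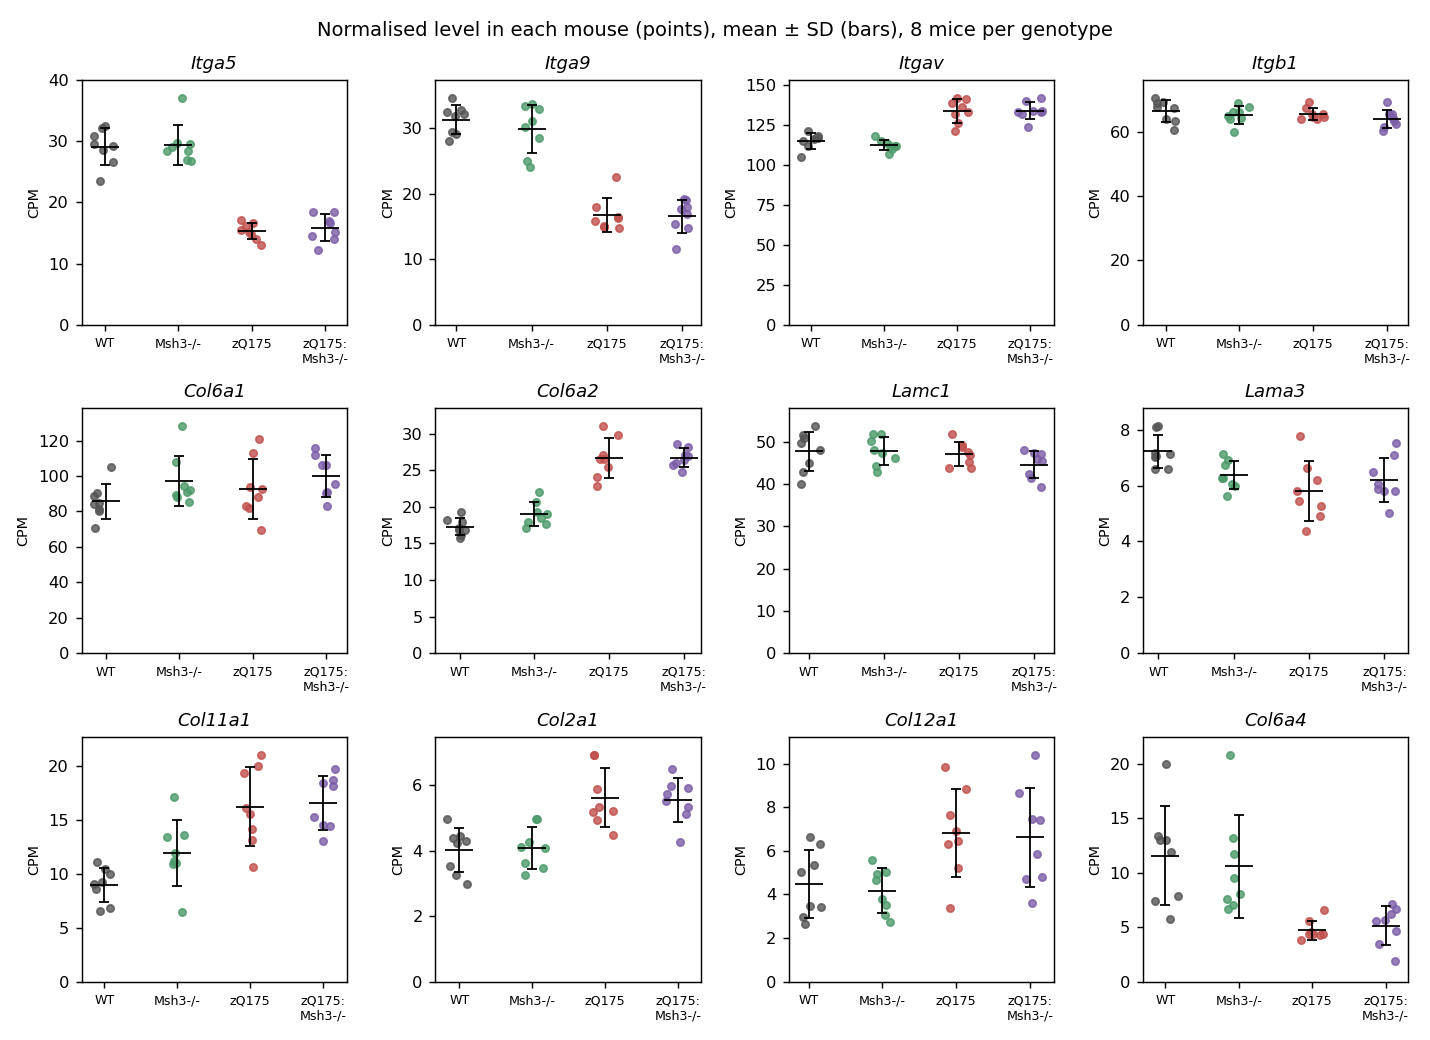
CPM of 12 genes in each mouse (points) with the group mean and SD (bars), 8 mice per genotype, axes from 0. Itga5, Itga9 and Col6a4 are lower on average and Col6a2, Col11a1, Col2a1 and Col12a1 higher in the groups with zQ175, and Itgav steps up slightly. The mice of Col6a4, Col11a1, Col2a1 and Col12a1 overlap between groups. Lama3 is lower in zQ175 with overlap, and Itgb1, Col6a1 and Lamc1 did not pass.

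The fibrillar collagens did not move as one class. Col11a1 and Col2a1, chains of the cartilage fibril, rose with zQ175. Col11a2, the most abundant fibrillar chain at 17.1 TPM, did not. It was at -0.18 ± 0.08 (adjusted p = 0.111), and at -0.25 ± 0.08 without Msh3 (adjusted p = 0.0219, under the fold). The second was -0.31 (adjusted p = 0.0525) without the mice of high Ttr. With Ttr and the cortical markers as covariates it was -0.19 (adjusted p = 0.0561). Col11a1 (chr3:114030540-114220718) ran from 6.56 to 11.1 CPM in wild-type, median 9.10, and 10.6 to 21 in zQ175, median 15.8, with overlap between 10.6 and 11.1. In Msh3-/- it ran from 6.41 to 17.1, median 11.5, and in zQ175:Msh3-/- from 13.0 to 19.7, median 16.7, with more overlap. The log2 fold change was 0.85 ± 0.15 (adjusted p = 6.5e-05) and 0.47 ± 0.15 (adjusted p = 0.0203), and the difference between these had a 95% interval of -0.82 to 0.05. Without the mice of high Ttr the values were 0.81 (adjusted p = 8.31e-04) and 0.73 (adjusted p = 0.0054). With Ttr and the cortical markers as covariates they were 0.79 (adjusted p = 3.91e-05) and 0.41 (adjusted p = 0.0241). Within groups Col11a1 ran with the cortical markers at r = 0.47 and with the spiny neuron markers at r = -0.68. The part of these in the rise was not tested. Col2a1 was at 2.99 to 4.96 CPM in wild-type and 4.48 to 6.93 in zQ175, and 3.27 to 4.98 in Msh3-/- and 4.27 to 6.49 in zQ175:Msh3-/- (0.48 ± 0.11, adjusted p = 0.00104, and 0.43 ± 0.11, adjusted p = 0.00408). The second was 0.37 with an adjusted p of 0.0722 without the mice of high Ttr, and 0.51 with an adjusted p of 2.07e-04 with the covariates.

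Col5a2, which sets the width of collagen I fibrils, passed in the second comparison (0.48 ± 0.17, adjusted p = 0.0322) and was at 0.12 ± 0.17 in the first (adjusted p = 0.669). It lay at 2.51 to 5.83 CPM in zQ175:Msh3-/- and 1.42 to 3.76 in Msh3-/-, with overlap, and at 0.42 with an adjusted p of 0.126 without the mice of high Ttr. With Ttr and the cortical markers as covariates this value was 0.54 (adjusted p = 0.0127). The chains of the common fibril did not pass in either, with Col1a1 at 0.04 ± 0.14 and -0.11 ± 0.14, Col1a2 at 0.17 ± 0.18 and 0.02 ± 0.18, and Col3a1 at -0.11 ± 0.19 and -0.02 ± 0.19. Col27a1 was at -0.20 ± 0.08 (adjusted p = 0.0462) and -0.22 ± 0.08 (adjusted p = 0.0338), under the fold.

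Of the collagens that attach to the surface of fibrils, Col16a1 and Col9a2 rose in zQ175 (0.36 ± 0.09, adjusted p = 0.00204, and 0.34 ± 0.09, adjusted p = 0.00552). Their values without Msh3 were 0.17 ± 0.09 and 0.16 ± 0.09 (adjusted p = 0.170 and 0.230). Col12a1 ran from 2.65 to 6.63 CPM in wild-type and 3.37 to 9.83 in zQ175, and from 2.76 to 5.58 in Msh3-/- and 3.61 to 10.4 in zQ175:Msh3-/-. The groups overlapped (0.59 ± 0.22, adjusted p = 0.0477, and 0.67 ± 0.23, adjusted p = 0.0285), and within groups its level ran with the cortical markers at r = 0.86. Leaving out the mice of high Ttr gave 0.62 and 0.74 with adjusted p of 0.0900 and 0.0789, and with Ttr and the cortical markers as covariates the changes were 0.34 (adjusted p = 0.0272) and 0.37 (adjusted p = 0.0224). Col20a1 fell, from 1.82 to 3.65 CPM in wild-type to 1.47 to 2.27 in zQ175, and from 1.81 to 3.15 in Msh3-/- to 0.723 to 2.19 in zQ175:Msh3-/- (-0.57 ± 0.16, adjusted p = 0.00674, and -0.53 ± 0.17, adjusted p = 0.0174). Without the mice of high Ttr the second was -0.53 with an adjusted p of 0.0838, and with the covariates -0.50 with an adjusted p of 0.0307.

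Col4a1 and Col4a2, collagens of the vessel basement membrane, did not pass with zQ175 in these tests. Col4a1, at 22.0 to 27.3 CPM in wild-type and 23.2 to 28.1 in zQ175, was at 0.06 ± 0.07 (adjusted p = 0.607), and Col4a2, at 30.6 to 38.5 and 28.6 to 38.9 CPM, was at 0.00 ± 0.07 (adjusted p = 0.969). Their genes overlap by 22 bases at their starts on opposite strands of chr8, and within groups they ran together at r = 0.64. The endothelial markers were lower in the same zQ175 mice, 4 of 8 past both thresholds (median log2 fold change -0.27). In zQ175:Msh3-/- against Msh3-/- 0 of 8 passed (median -0.18). In zQ175:Msh3-/- against wild-type 4 of 8 passed, all lower (median -0.27), and against zQ175 0 of 8 passed (median -0.01). Col15a1, a collagen of the outer basement membrane, was at -0.17 ± 0.11 in zQ175 (adjusted p = 0.280) and fell without Msh3 (-0.31 ± 0.11, adjusted p = 0.0386), with 2.40 to 3.79 CPM against 2.97 to 4.62 and an adjusted p of 0.0972 without the mice of high Ttr. With Ttr and the cortical markers as covariates its value without Msh3 was -0.36 (adjusted p = 0.0218). In zQ175:Msh3-/- against wild-type it also passed, at -0.30 ± 0.11 (adjusted p = 0.0468). The transmembrane collagen Col25a1, which is made by neurons, was at 0.08 ± 0.06 and at 0.15 ± 0.06 (adjusted p = 0.0449, under the fold), and none of the 4 transmembrane collagens passed both thresholds. The second value of Col25a1 was 0.17 (adjusted p = 0.11) without the mice of high Ttr and 0.15 (adjusted p = 0.0544) with the covariates.

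By the mice alone, 2 of the 75 genes were higher in each zQ175 mouse than in each wild-type mouse (2.67%, Col6a2 among them) and 3 were lower (Itga5, Itga9 and Itgb1bp1, 4%), where 2.02% and 4.61% of all genes tested were apart in those directions. In zQ175:Msh3-/- against Msh3-/-, 3 were higher (Col6a2 and Itgav among them) and 2 were lower (Itga5 and Itga9), beside 1.75% and 3.64% of all genes.

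zQ175:Msh3-/- mice were also set against wild-type, which the first comparison uses too, so the values are given side by side. In this comparison 10 of the 75 were higher and 6 were lower, where 5.5% and 6.49% of all genes passed. Itga5 was at -0.88 ± 0.08, Itga9 at -0.92 ± 0.09, Col6a2 at 0.63 ± 0.06, Col11a1 at 0.89 ± 0.15, Col2a1 at 0.46 ± 0.11, Col6a4 at -1.17 ± 0.25 and Col20a1 at -0.70 ± 0.16. The genes past both thresholds here and in neither of the other comparisons were Itgb3 (0.50 ± 0.12, adjusted p = 0.00187), Itga3 (0.33 ± 0.11, adjusted p = 0.0195), a laminin-binding chain, Col6a3 (0.41 ± 0.14, adjusted p = 0.0214) and Col5a3 (0.48 ± 0.18, adjusted p = 0.0411). Without the mice of high Ttr, with which its level ran, Itga3 passed in the first comparisons too, at 0.37 (adjusted p = 0.00123) and 0.34 (adjusted p = 0.00714).

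The effect of losing Msh3 on a zQ175 background was read from zQ175:Msh3-/- against zQ175. In zQ175:Msh3-/- against zQ175, 0 of the 75 passed by edgeR's quasi-likelihood test and 0 by DESeq2, and 2 had an unadjusted p under 0.05 (Itga8 at 0.61 and Lamb1 at 0.16). Over all genes 0.00602% passed both thresholds, which was Msh3 itself, and 3.7% had an unadjusted p under 0.05. For Itga5 the difference was 0.05 on the log2 scale, with a 95% interval of -0.12 to 0.21, for Itga9 -0.01 (-0.20 to 0.17), for Col6a2 0.00 (-0.11 to 0.11), and for Col11a1 0.03 (-0.27 to 0.33). The intervals were wider for Col6a4 (-0.42 to 0.69) and Col12a1 (-0.48 to 0.42), so that for these a change of moderate size in either direction was not excluded. For Col5a2 the interval ran from -0.02 to 0.66.

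In Msh3-/- against wild-type mice 0 of the 75 passed by edgeR or DESeq2, beside 0.00602% of all genes, and 6 had an unadjusted p under 0.05 (8%), beside 5.09% of all genes. Among these, Col11a1 was at 0.42 (95% interval 0.10 to 0.73, adjusted p = 0.916) and Col6a2 at 0.14 (0.02 to 0.25, adjusted p = 0.926). The interaction, which asks whether the change with zQ175 differs with and without Msh3, gave 0 of 75 by both tools, beside 0% of all genes, and 1 with an unadjusted p under 0.05, beside 4.44%. That gene was Lama3, at 0.29 (0.03 to 0.55, adjusted p = 0.999). Between females and males 0 of 75 passed by both tools, beside 0.169% of all genes, and 7 had an unadjusted p under 0.05 (9.33%), beside 9.31% of all.

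Several collagens varied widely between mice of the same genotype. Within groups, over 32 mice, 9 of the 75 tested genes ran with the summed choroid plexus markers at r of at least 0.7 (12%), where 1.27% of all genes tested did. They were Col9a3 (0.96), Col8a1 (0.94), Col8a2 (0.91), Col4a4 (0.90), Col4a3 (0.89), Lama5 (0.83), Col4a5 (0.78), Col18a1 (0.74) and Itga3 (0.70). These are correlations of log2 levels as deviations from the group means, given as a description, and the points share library and depth. Ttr, at a mean of 385 CPM, made up most of the choroid plexus sum, and the next marker, Clic6, was at 28. With the summed fibroblast and meningeal markers 9 of the 75 reached 0.7 as well, beside 1.54% of all genes, and 8 of these were also on the choroid plexus list, with Col1a2 (0.73) in place of Itga3. Igf2, at a mean of 34.1 CPM, made up most of that sum, and the next marker, Aebp1, was at 10.7.

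The levels show the size of this. Col8a1, a short chain collagen, lay at 1.96 to 21.4 CPM in the 8 mice of high Ttr, median 9.85, and at 0.303 to 2.01 in the other 24, median 1.04. Col8a2, its partner, lay at 3.98 to 21 against 0.786 to 4.49, and Col9a3 at 18.4 to 57.7 against 8.78 to 18.7. Col4a3 and Col4a4, which start 71 bases apart on opposite strands of chr1 and join in the collagen IV of the kidney glomerulus, lay at medians of 2.06 and 2.34 CPM against 0.393 and 0.578. Each genotype held mice of high and of low level, and the standard error of the zQ175 comparison was 0.91 for Col8a1, where the median over the 75 was 0.12. Col9a3, at 0.14 ± 0.39 in zQ175 against wild-type with all mice (adjusted p = 0.837), was at 0.39 (adjusted p = 0.0401) without the mice of high Ttr and at 0.35 (adjusted p = 0.0213) with the covariates. Its values without Msh3 were 0.01 ± 0.38, 0.12 and 0.20 in the same order, none past the thresholds.

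Cortical markers ran with another set. Col5a1 (r = 0.91), Col24a1 (0.90), Col12a1 (0.86), Itga8 (0.81) and Col19a1 (0.72) reached 0.7 with the summed markers of cortical neurons, 5 of 75 (6.67%) beside 2.21% of all genes. Slc17a7, at a mean of 190 CPM, made up most of that sum, and the next marker, Tbr1, was at 26. Col5a1 and Col24a1 ran with each other at r = 0.92. Col5a1 ran from 2.05 to 8.61 CPM in wild-type and from 2.54 to 14.2 in zQ175, and its log2 fold change of 0.58 ± 0.34 did not pass (adjusted p = 0.224). Itgb4, the partner of Itga6, ran with the summed oligodendrocyte markers at r = 0.88, and Lama2 at 0.69. None of the 75 reached 0.7 with the endothelial, mural, microglial or spiny neuron markers, nor with those of oligodendrocyte precursors or blood, and 1 reached it with the astrocyte markers, Col19a1 (0.90). Slc1a2, at a mean of 2520 CPM, made up most of the astrocyte sum. With the spiny neuron markers r ran from -0.68 for Col11a1 to 0.68 for Itga5.

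**Figure D5:**
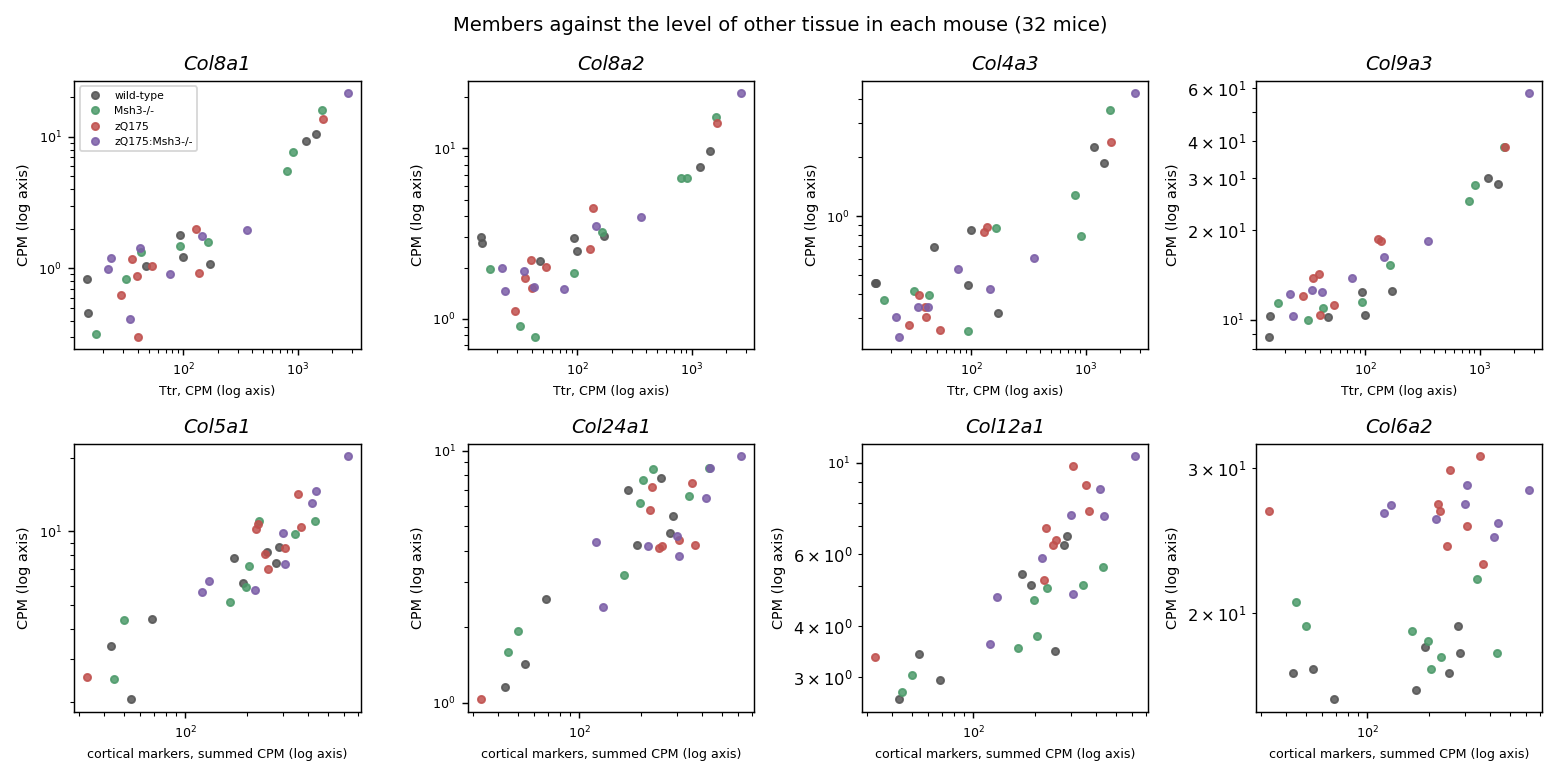
Level of 4 collagens against Ttr (upper row) and of 4 against the summed cortical neuron markers (lower row) in each of 32 mice, on log axes, coloured by genotype. Col8a1, Col8a2, Col4a3 and Col9a3 climb with Ttr and Col5a1, Col24a1 and Col12a1 with the cortical markers, in mice of all 4 genotypes, while Col6a2 separates by genotype at any level of the cortical markers.

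Genes that make, link, cut and sense this matrix were counted from lists, 75 genes in all, of which 66 were tested. In zQ175 against wild-type 3 were higher and 7 lower, and in zQ175:Msh3-/- against Msh3-/- 1 was higher and 7 lower. Their shares of the 66 were 4.55% and 10.6% in the first comparison and 1.52% and 10.6% in the second, beside 4.7% and 6.89%, and 4.68% and 5.96%, of all genes. Of 22 tested genes of collagen making, P4ha1, which hydroxylates proline in collagen, was lower in both (-0.30, adjusted p = 0.0123, and -0.48, adjusted p = 1.98e-04), as was P3h3 (-0.35, adjusted p = 1.18e-04, and -0.40, adjusted p = 1.96e-05). Adamts3, a procollagen N-proteinase, was lower in the first (-0.47, adjusted p = 4.85e-06) and under the fold in the second (-0.23). P4ha3 was higher in the first (0.44, adjusted p = 0.0296). Loxl1, which cross-links collagen and elastin, and Adamts2 were lower in the second (-0.61, adjusted p = 0.0186, and -0.30, adjusted p = 0.0228). Of 11 tested matrix and linker genes 1 passed in either comparison, Sparc, a collagen-binding secreted protein, which was lower (-0.29, adjusted p = 0.0196, and -0.35, adjusted p = 0.00543).

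Of 21 tested genes of integrin adhesion, Zyx, the focal adhesion protein zyxin, was higher in both (0.54, adjusted p = 5.12e-09, and 0.48, adjusted p = 8.79e-08). Tns1 and Tns2, tensins that bind integrin beta tails, were lower in both (-0.40 and -0.36, adjusted p = 7.69e-08 and 7.78e-07, for Tns1, and -0.33 and -0.32, adjusted p = 4.24e-04 and 6.53e-04, for Tns2). Ptk2b, a kinase related to focal adhesion kinase, was lower in the first (-0.29, adjusted p = 1.58e-06) and under the fold in the second (-0.23). Of 10 tested proteases and inhibitors, Timp2 was higher in the first (0.31, adjusted p = 3.70e-07) and under the fold in the second (0.24). The collagen receptors Ddr1 and Ddr2 did not pass in either.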

How the data were processed

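Striatal RNA of 32 mice was measured by poly(A) RNA-seq with paired-end reads. The authors deposited whole-number read counts per gene and a table on the TPM scale, each column of which sums to 1000000; the genome build in the submitters' processing notes is GRCm38.p6, and the aligner, counting program and strand setting are not given in the sources used here. Identifiers were matched to GENCODE M21. Groups, sex and replicate numbers came from the labels. Counts were fitted with edgeR 4.0.16 in R 4.3.3 (TMM, filterByExpr by group, robust quasi-likelihood, 4 genotypes, all 32 mice), which kept 16610 genes, and p-values were adjusted by Benjamini-Hochberg over all of them. A gene passed at an adjusted p under 0.05 and a fold of at least 1.2. Standard errors are the log2 fold change over the square root of F, and 95% intervals use t with the residual degrees of freedom. Fits of sex add it to genotype. DESeq2 1.42.0 on counts and limma 3.58.1 on log2 TPM were alternatives. The fits were tested on simulated data. The genes and lists were chosen with earlier results of these data known; genes are named if they passed in any comparison, are the 2 most abundant of a class, or are partners of common trimers and pairs, and other members are named where a correlation or a list count singles them out after their values were seen. Some items that enter the counts are not reported here. Nothing in the labels ties mice by number, so the numbers were not taken as pairs. Of 45 same-numbered pairs 14 correlated above 0.1 (lowest -0.15, median 0.0509, highest 0.33). Pairs of unlike number are not given beside them, so these values do not decide whether the numbers are pairs. The most alike mice of a group differed by 4.00 times the counting variance (mean chi-square per gene).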

Additional observations from a re-analysis of the deposited data

Results flagged for a closer look

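Of 180 groups of 8 mice examined, for 45 named genes, 20 held a mouse whose gap to its nearest neighbour took more than 0.526 of the whole range of the group (Dixon's critical value), where chance gives about 1 in 20 groups. The cause was not tested for any of them.

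Several of these lie in mice of high Ttr. In the zQ175 mouse at 1675 CPM of Ttr, Col9a3 stood at 38.0 CPM against 18.7 or less in the other 7 (share of the range 0.545), Lama5 at 18.4 against 13.7 or less (0.577) and Col1a2 at 8.99 against 5.90 or less (0.536). In the zQ175:Msh3-/- mouse at 2723 CPM of Ttr, Col9a3 stood at 57.7 against 18.4 or less (0.664), Lama5 at 25.2 against 14.8 or less (0.569) and Col16a1 at 13.4 against 15.8 or more (0.638). Others in such mice were Lamb2 in a Msh3-/- mouse at 807 CPM of Ttr (33.6 CPM, 0.56), Itgb8 in a Msh3-/- mouse at 1642 (89.2 CPM, 0.599) and Itgam in a wild-type mouse at 1444 (23.8 CPM, 0.533).

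Male 2 of Msh3-/- was both the highest of its group in Itga5, at 37.1 CPM against 29.7 or less (0.675), and the lowest in Col11a1, at 6.41 against 10.9 or more (0.535). Male 1 of zQ175:Msh3-/- was the lowest in Col11a2, at 23.0 CPM (0.608), and in Col20a1, at 0.723 (0.602). Female 3 of zQ175 was the highest in Itga9, at 22.6 CPM against 18.0 or less (0.533), and the lowest in Col25a1, at 31.1 (0.612).

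The others were Itgb1bp1 at 42.3 CPM (0.587), Itgb2 at 4.90 (0.577) and Lama2 at 25.1 (0.582), each in a different zQ175:Msh3-/- mouse, Col3a1 at 0.706 in a Msh3-/- mouse (0.631) and Col5a1 at 2.54 in a zQ175 mouse (0.589).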

How the results depend on the processing

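In zQ175 against wild-type, the 8 genes higher became 5 in males only, 5 in females only and 4 at a fold of at least 1.5, and the 6 lower became 3 in males only, in females only, at a fold of at least 1.5 and by limma on log2 TPM with any of the 3 settings tried. In zQ175:Msh3-/- against Msh3-/-, the 6 higher became 2 in females only and at a fold of 1.5, and the 6 lower became 3 at a fold of 1.5 and by limma on log2(TPM + 1), 11 with no fold required and 2 without the mice of high Ttr. In zQ175:Msh3-/- against wild-type, the 10 higher became 4 in females only, 6 without the mice of high Ttr and 3 at a fold of 1.5, and the 6 lower became 11 with no fold required. The median log2 fold change over these genes changed sign on the TPM scale, to 0.0407 (no filter 0.0407) and 0.0327 in the first comparison and 0.0506, 0.0505 and 0.0421 in the second, where it was also 0.0754 in males, -0.0723 in females and -0.0458 to 0.0374 with 1 mouse left out. Except where fewer mice or another fold define the setting, the cause was not tested.

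With 1 mouse left out, 6 to 10 were higher and 5 to 7 lower in the first comparison, 4 to 8 and 5 to 8 in the second, and 8 to 12 and 5 to 8 in the third. The calls lost to 1 mouse were Col12a1 (adjusted p up to 0.104), Itga2b (up to 0.0948) and Itgb1bp1 (log2 fold change down to -0.24, under the fold) in the first, and Col12a1, Col5a2 (up to 0.110) and Col15a1 (up to 0.102) in the second, each with several mice in turn. Col11a1, Col6a2, Itga5 and Itga9 passed in zQ175 under each setting run, and Col6a2, Itga5 and Itga9 without Msh3. No gene that passed changed sign under any of them, and of 1054 values of other named genes 116 did. With a replicate block, 8 and 6 were called in the first comparison, 4 and 6 in the second and 7 and 7 in the third, and the numbers were not taken as pairs. The settings that leave out the mice of high Ttr or fit Ttr and cortical markers were chosen after seeing the data. Depth limits the scarce chains most, and 20 of the 84 lay under 1 TPM.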

Other observations

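Among the tested genes, and named after their values were seen, Itgal had the highest log2 difference between zQ175:Msh3-/- and zQ175 mice (0.65) and Itgb7 the lowest (-0.26), and Col13a1 had the highest value in the interaction (0.60). Itgal ran from 0.195 to 1.73 CPM over all mice, Itgb7 from 0.285 to 1.29 and Col13a1 from 0.0649 to 0.853, and none of these passed the thresholds.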
